A study of Pinus armandii with 6 samples.

Results

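The chlorophyll and carotenoid pathways of Pinus armandii seed kernels were described through 87 unigenes, the assembled transcripts of this species. They are the unigenes that the deposited annotation places on the KEGG maps for porphyrin and chlorophyll metabolism (ko00860, 65 unigenes) or carotenoid biosynthesis (ko00906, 22 unigenes). The maps held 96 of the 65117 unigenes, and 9 were set aside by symbol (chlB, NCED, CYP707A, AAO and ABA2 names). Kernels came from cones of this pine, which bears edible nuts, and were harvested late in August or late in September. Each month had 3 libraries, which the labels call biological replicates. The labels name no genotype, treatment, tree or pool, and the p-values cover only library-to-library spread, which may be partly technical. Total estimated counts ran from 12849649 to 17379628 a library.

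Chlorophyll and heme are built on a shared tetrapyrrole route that starts from glutamate bound to its transfer RNA. A chelatase then inserts magnesium for chlorophyll or iron for heme, and chlorophyll is later taken apart by its own set of enzymes. Carotenoids are made in plastids from geranylgeranyl diphosphate by condensation, desaturation, ring closure and hydroxylation, and they protect chlorophyll, stabilise photosystems and feed abscisic acid synthesis. Conifers are known for making chlorophyll in darkness as well as in light, through a plastid-encoded reductase that flowering plants lack. A pine kernel holds the embryo inside the megagametophyte, its storage tissue.

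Of the 87 members, 66 passed the filter on low counts and 21 did not. With the quasi-likelihood test of edgeR, adjusted over all tested unigenes (Benjamini-Hochberg), 19 were higher in September, 19 were lower and 28 did not pass. The called share was 57.6% of the tested members, against 67.8% of all 23216 tested unigenes. Higher calls were 28.8% of tested members against 35.4% of all, and lower calls 28.8% against 32.5%. A change of at least 2-fold was called higher in 7 members and lower in 5. Over all tested unigenes those shares were 24.3% and 12.4%. The median log2 fold change was 0.04 over the tested members and 0.03 over all tested unigenes. The libraries of the months did not overlap in 46 tested members (69.7%, against 72.9% of all).

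The calls were also counted by role, beside 35.4% higher and 32.5% lower over all tested unigenes. In the shared tetrapyrrole steps 4 of 14 tested members were higher and 1 was lower. In the magnesium branch 6 of 13 were higher and 2 lower. In chlorophyll turnover 1 of 12 was higher and 7 were lower, and in the heme, siroheme and bilin branch 1 of 10 was higher and 4 lower. Carotenoid desaturation had 2 higher and 2 lower of 6, and ring closure and hydroxylation had 3 higher and 2 lower of 6. Whether the roles differ from each other was not tested.

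**Figure D1:**
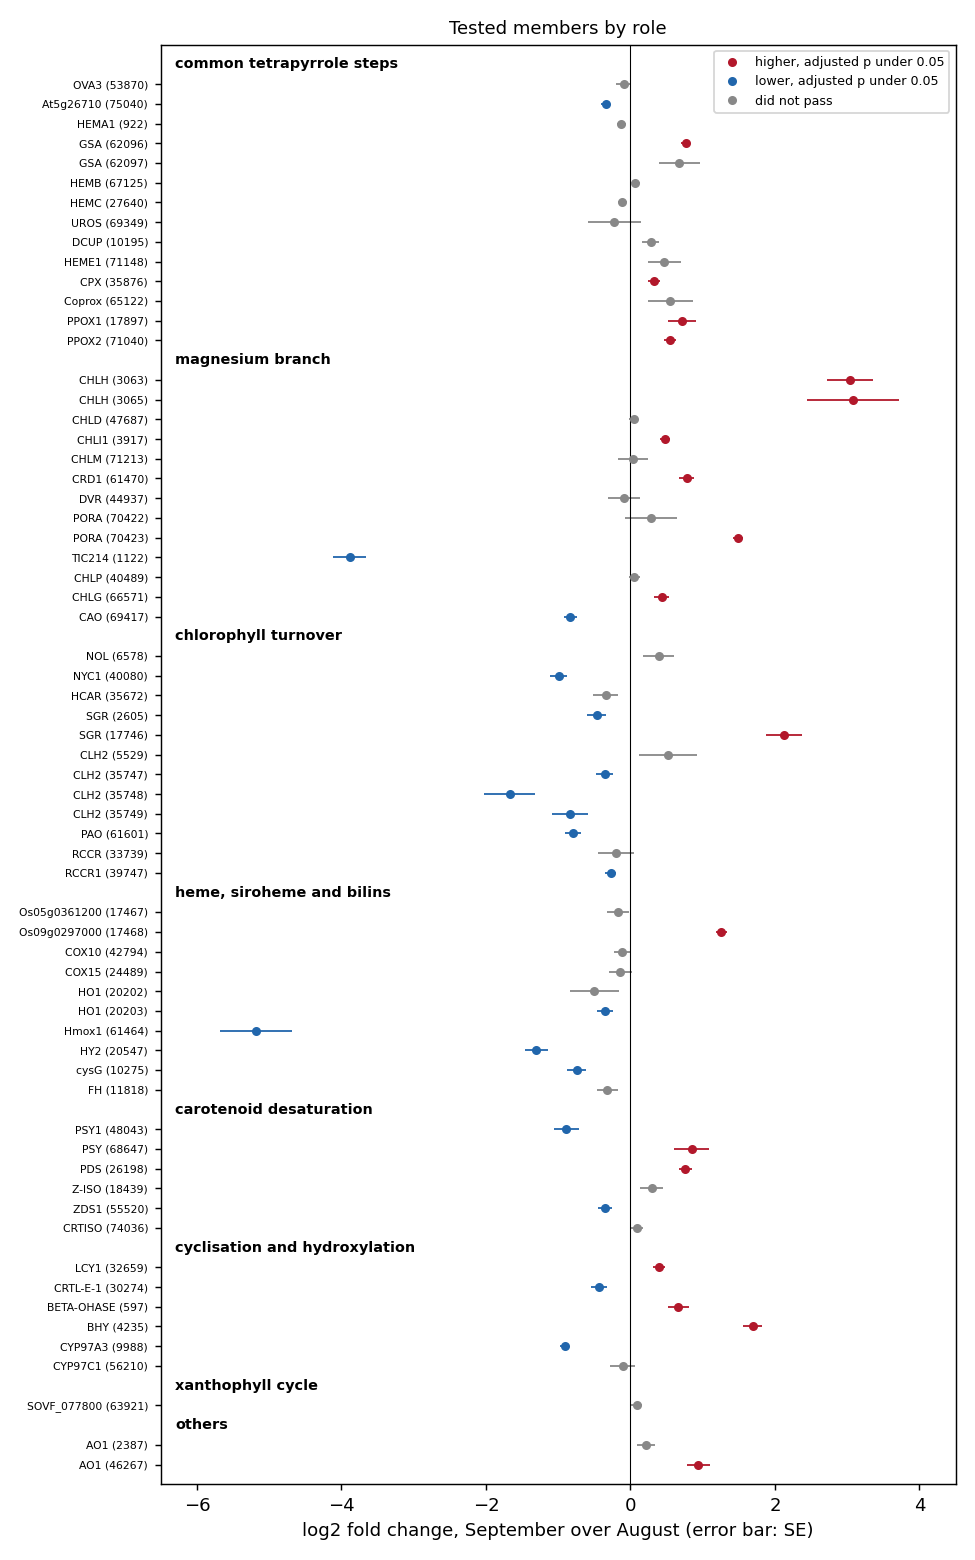
Log2 fold change (September over August, error bar SE) of 64 tested members, sorted by role and by order in the pathway; the number in brackets is the unigene number, and colour marks members past an adjusted p of 0.05. Chlorophyll turnover lies mostly left of 0, with 7 members lower, among them CLH2 unigenes that share a best hit. The magnesium branch lies mostly right of 0, with 6 higher. ZCD and SDR2a, near 0 counts in a single month, are left out.

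Summed over all members, expression was 2393, 2352 and 2387 CPM in August and 2616, 2623 and 2641 CPM in September. CPM are counts scaled to a library's counts in tested unigenes, with the TMM factor. The September sum was 1.1 times that of August, and the libraries did not overlap (exact two-sided permutation p = 0.1, the smallest that 20 orderings allow). The chlorophyll and porphyrin members went from 1763 ± 11.5 to 2015 ± 23.3 CPM (SD, n = 3 each; exact permutation p = 0.1). Of the 49 tested chlorophyll and porphyrin members 12 were higher and 14 lower. Their largest rises were 139 CPM for a ferrochelatase (Unigene0017468), 104 CPM for PORA (Unigene0070423) and 76.5 CPM for GSA (Unigene0062096). The carotenoid members stood at 614.5 ± 11.6 and 611.6 ± 25 CPM (exact permutation p = 0.8). RNA was taken from whole kernels, so fewer cells of a type and less RNA per cell cannot be told apart.

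The tetrapyrrole route begins with glutamyl-tRNA. HEMA1 (Unigene0000922), glutamyl-tRNA reductase, the step at which the route is known to be regulated, was at 104, 99.6 and 110 CPM in August and 94, 99.6 and 94.1 CPM in September. The fold was small (log2 fold change -0.13, SE 0.0631, adjusted p = 0.101), and the call passed without the second August library (-0.18, adjusted p = 0.0434). The next enzyme, the aminotransferase GSA (Unigene0062096), which makes 5-aminolevulinate, was at 115, 108 and 106 CPM and then at 184, 185 and 190 CPM. All September libraries lay above all August libraries, and the rise was 1.7-fold (log2 0.76, SE 0.0573, adjusted p = 2.04e-06). A shorter GSA unigene with the same best hit (Unigene0062097) stood at 2.18 and 3.49 CPM (adjusted p = 0.0515), and the sum of the pair rose by a log2 of 0.80 (adjusted p = 1.5e-06).

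HEMB (Unigene0067125), aminolevulinate dehydratase, had the highest mean level per length of the shared steps, at 102 ± 6.01 FPKM in August and 107 ± 3.11 FPKM in September, and did not pass (adjusted p = 0.349). HEMC (Unigene0027640), which joins porphobilinogen units, was at 44.9 and 41.4 FPKM and did not pass (adjusted p = 0.11, or 0.0419 without the third August library). Of 4 tested unigenes of the later oxidation steps, 3 were higher. CPX (Unigene0035876), coproporphyrinogen oxidase, went from 51.9 ± 3.81 to 65.1 ± 4.04 CPM (log2 0.33, adjusted p = 0.00432). The protoporphyrinogen oxidases PPOX2 (Unigene0071040) and PPOX1 (Unigene0017897) rose by log2 fold changes of 0.55 and 0.72. The 1 lower member of the shared steps was a glutamyl-tRNA synthetase (At5g26710, Unigene0075040, log2 -0.34), an enzyme that serves protein synthesis. It carries no plastid term in the deposited annotation. OVA3 (Unigene0053870), the other tested synthetase, carries such a term, stood at 22.5 and 21.2 CPM and did not pass (log2 -0.09, adjusted p = 0.428).

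Magnesium chelatase has 3 subunits, of which H carries the porphyrin and D and I form the ATP-driven motor. CHLD (Unigene0047687) had the highest level per length in the magnesium branch averaged over both months, at 73.9 ± 3.68 FPKM in August and 75.9 ± 2.72 FPKM in September (adjusted p = 0.538). In September PORA (Unigene0070423) stood above it, at 87.8 ± 4.64 FPKM. CHLI1 (Unigene0003917) was at 61.9, 65.6 and 60.6 CPM in August and 87, 85.3 and 89.7 CPM in September, a rise of 1.39-fold without overlap (adjusted p = 9.01e-05). CHLH was split over 3 unigenes with different best hits, and all were low.

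The longest CHLH unigene (Unigene0003063) was at 0.686, 0.741 and 0.445 CPM in August and at 5.38, 4.03 and 6.15 CPM in September. It rose 8.23-fold (log2 3.04, SE 0.319, adjusted p = 1.97e-05), with every September library above every August library. The second (Unigene0003065) rested on 3, 2 and 0 counts in August and rose by a log2 of 3.08 (adjusted p = 0.00169), a value that moved to 3.67 without the first August library and to 2.48 without the third. The third (Unigene0003067) was too low to test, with 0 to 10 counts a library. Summed over its unigenes, CHLH reached 2.74 FPKM in September, while CHLI1 was at 43.4 and CHLD at 75.9 FPKM.

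The steps after magnesium insertion rose at some enzymes and not at others. CHLM (Unigene0071213), the methyltransferase, stood at 7.91 and 8.16 CPM (adjusted p = 0.879). CRD1 (Unigene0061470), a subunit of the cyclase that closes the fifth ring, went from 25, 21.6 and 25.4 CPM to 42.1, 37.2 and 44.5 CPM. That was a 1.72-fold rise without overlap (log2 0.78, SE 0.101, adjusted p = 8.33e-05). DVR (Unigene0044937), the divinyl reductase, was at 4.47 and 4.2 CPM (adjusted p = 0.738).

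PORA (Unigene0070423), the light-dependent protochlorophyllide oxidoreductase, whose best hit is the enzyme of Pinus mugo, was at 57.4, 55.2 and 60.8 CPM in August. In September it was at 171, 153 and 162 CPM. The months were far apart, and the rise was 2.8-fold (log2 1.48, SE 0.0681, adjusted p = 1.14e-07). A second PORA unigene (Unigene0070422) had a log2 fold change of 0.28 with SE 0.356, at 2.08 to 6.54 CPM, and its libraries overlapped. CHLG (Unigene0066571), chlorophyll synthase, which attaches the phytol tail, rose from 20 ± 1.32 to 27 ± 2 CPM (log2 0.43, adjusted p = 0.00356). CHLP (Unigene0040489), which reduces the tail's precursor, stood at 46.3 and 48.1 CPM (adjusted p = 0.544).

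CAO (Unigene0069417), chlorophyllide a oxygenase, makes chlorophyll b and was 1 of 2 lower members of the magnesium branch. It was at 44, 49.7 and 50.1 CPM in August and at 28.9, 24.7 and 27.4 CPM in September. Every September library was below every August library, and CAO fell by 0.83 on the log2 scale (SE 0.0924, adjusted p = 2.88e-05). The ratio of PORA to CAO in CPM, which is not scaled to length and is given for its change between months, was 1.3, 1.11 and 1.21 in August and 5.94, 6.2 and 5.9 in September.

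The other lower member of this branch carries the symbol TIC214, a plastid protein import component, and the KEGG number of the N subunit of the light-independent protochlorophyllide reductase. Symbol and KEGG number of Unigene0001122 thus differ, its length from count and FPKM is 9777 bases, and which transcript it counts was not resolved. It was at 26.1, 34 and 43.1 CPM in August and at 2.52, 1.79 and 2.76 CPM in September, a fall of 3.88 on the log2 scale (SE 0.229, adjusted p = 4.53e-07). Of the unigenes set aside by symbol, chlB (Unigene0023906), another subunit of that reductase, had 55 counts in August and 1 in September. That is a ratio of 54.3 with an exact 95% interval of 9.36 to 2190, for counting error only. Among plastid-encoded photosystem genes, psaA (Unigene0001382) and psbC (Unigene0045204) also fell, by 2.32 and 1.61 on the log2 scale. The tested psbA, psbB and psaJ unigenes did not pass (log2 -0.17, -0.03 and -0.34). Whether the falls are particular to the reductase was not tested.

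**Figure D2:**
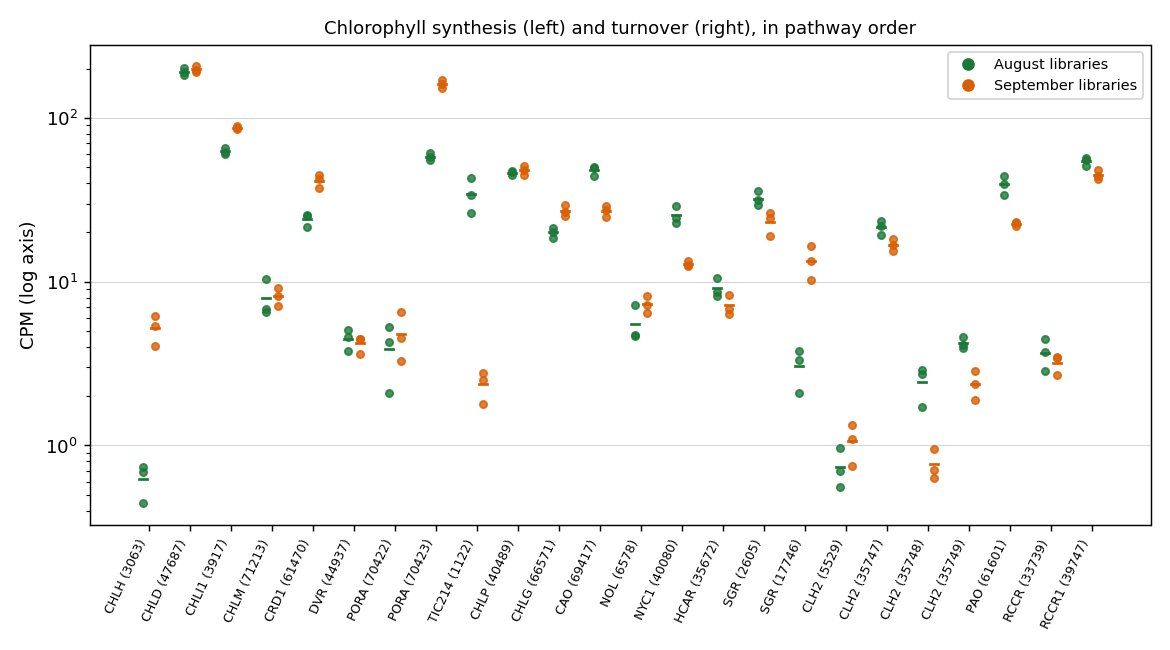
CPM (log axis) of tested magnesium-branch and chlorophyll turnover members in each library, in pathway order, with lines at the month means. The PORA unigene with the higher level rises from about 57.8 to 162 CPM, while CAO, NYC1 and PAO lie lower in September; the CHLH unigene with a library at 0 is left out.

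Of 12 tested chlorophyll turnover unigenes 7 (58.3%) were called lower in September, against 32.5% of all tested unigenes. CLH2 unigenes sharing a best hit were among these, and 5 were lower with unigenes of the same best hit summed. NYC1 (Unigene0040080), which turns chlorophyll b back toward chlorophyll a, was at 22.9, 24.5 and 28.8 CPM in August and at 12.5, 12.6 and 13.3 CPM in September. The months did not overlap, and NYC1 fell by 0.99 on the log2 scale (SE 0.119, adjusted p = 4.74e-05). Its relative NOL (Unigene0006578) was at 5.51 and 7.26 CPM (log2 0.39, adjusted p = 0.129) and passed as higher without the first August library (0.60, adjusted p = 0.0257). HCAR (Unigene0035672), the next enzyme of that conversion, did not pass (log2 -0.34, adjusted p = 0.0999).

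SGR, the magnesium dechelatase known from flowering plants to start chlorophyll breakdown, was the only turnover enzyme with calls in both directions. Unigene0002605 was at 29.3, 31.4 and 35.6 CPM in August and at 19.1, 26.1 and 24.4 CPM in September, and fell by 0.47 on the log2 scale (SE 0.129, adjusted p = 0.009). Unigene0017746 was at 3.31, 3.78 and 2.1 CPM in August and at 10.2, 13.3 and 16.6 CPM in September. It rose 4.37-fold (log2 2.13, SE 0.251, adjusted p = 4.33e-05), and neither pair of months overlapped. The 4 SGR unigenes summed to 35.6 ± 2.62 and 36.7 ± 6.4 CPM with overlapping libraries, and no test was run on that sum.

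Downstream, PAO (Unigene0061601), the oxygenase that opens the pheophorbide ring, was at 33.9, 39.7 and 44.1 CPM in August and at 21.9, 23 and 22.7 CPM in September. It fell by 0.80 on the log2 scale without overlap (SE 0.107, adjusted p = 0.000102). RCCR1 (Unigene0039747), which reduces the opened product, fell by 0.27 (SE 0.0784, adjusted p = 0.0105) and had the highest mean level per length of the turnover group, at 27 and 22.2 FPKM. The other RCCR unigene (Unigene0033739) did not pass (log2 -0.20, adjusted p = 0.502).

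Chlorophyllases, which cut the phytol tail, were spread over 6 unigenes, of which 3 CLH2 unigenes sharing a best hit were lower. Unigene0035747, the most abundant by CPM, went from 21.5 ± 1.97 to 16.8 ± 1.4 CPM, a call lost without September library 2 or 3 (adjusted p = 0.075 and 0.0532). Unigene0035748 fell by 1.67 on the log2 scale from 2.45 CPM, and Unigene0035749 by 0.84 from 4.22 CPM, a call lost with DESeq2 (adjusted p = 0.0531). With the unigenes of that best hit summed, the fall was 0.47 (adjusted p = 0.00276). The other tested CLH2 unigene (Unigene0005529) had a log2 fold change of 0.52 and did not pass (adjusted p = 0.27). PPH, the pheophytinase that cuts the tail of magnesium-free chlorophyll in Arabidopsis, lies outside the KEGG map here. Of its 2 tested unigenes, Unigene0015322 rose from 19.1 ± 1.99 to 23.9 ± 2.42 CPM (log2 0.33, adjusted p = 0.0336). The other (Unigene0022323) stood at 5.05 and 5.31 CPM and did not pass (log2 0.07, adjusted p = 0.827).

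In the iron branch, ferrochelatase, which inserts iron to make heme, held the largest rise of any member in CPM. The unigene with symbol Os09g0297000 (Unigene0017468) was at 111, 95.9 and 92.2 CPM in August and at 235, 250 and 233 CPM in September. It rose 2.4-fold (log2 1.26, SE 0.0766, adjusted p = 5.34e-07), with all September libraries above all August libraries. The other tested ferrochelatase (Os05g0361200, Unigene0017467) was at 13.8 and 12.2 CPM (adjusted p = 0.336). The 3 largest rises in CPM were 139 CPM for Os09g0297000, 104 CPM for PORA and 76.5 CPM for GSA.

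The other tested members of the heme, siroheme and bilin branch were lower or did not pass. HO1 (Unigene0020203), heme oxygenase, whose best hit is the Pinus taeda enzyme, went from 43.2 ± 6.15 to 33.8 ± 1.62 CPM (log2 -0.35, adjusted p = 0.0157), a call lost without the third September library (adjusted p = 0.0599). A second HO1 unigene (Unigene0020202) did not pass (log2 -0.50, adjusted p = 0.211). HY2 (Unigene0020547), which makes phytochromobilin, the chromophore of the light receptor phytochrome, was at 12.3, 11.4 and 12 CPM and then at 4.63, 5.53 and 4.26 CPM. The libraries were tight within each month, and HY2 fell by 1.30 on the log2 scale (SE 0.157, adjusted p = 5.09e-05). A cysG unigene (Unigene0010275), annotated as the methyltransferase that leads to siroheme, fell by 0.74 (SE 0.133, adjusted p = 0.000668). COX10 (Unigene0042794) and COX15 (Unigene0024489), which modify heme for cytochrome oxidase, and the frataxin FH (Unigene0011818) did not pass, with adjusted p-values of 0.404, 0.474 and 0.0716. FH passed as lower without August library 3 (adjusted p = 0.0327) and also with limma on FPKM.

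Another heme oxygenase unigene (Hmox1, Unigene0061464) had its best hit in a red alga. It was at 4.55, 3.63 and 2.48 CPM in August and at 0.0681, 0.0576 and 0.158 CPM in September, a fall of 5.18 on the log2 scale (SE 0.498, adjusted p = 1.07e-05). Unigenes with a best hit in a list of non-plant genera (Sphaeroforma, Blastocystis, Cafeteria and others) were also mostly lower in September. Of 40 tested in that list of 244, 27 were lower (67.5%) and 9 higher (22.5%). The shares of all tested unigenes were 32.5% lower and 35.4% higher. The list summed to 130 to 283 CPM in August and 55.9 to 84.2 CPM in September. The part of such material in the Hmox1 value was not tested.

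Carotenoid synthesis starts with phytoene synthase, which was represented by 2 unigenes that moved in opposite directions. PSY1 (Unigene0048043) was at 9.48, 11.3 and 13.1 CPM in August and at 6.6, 6.22 and 5.44 CPM in September, and fell by 0.89 on the log2 scale (SE 0.171, adjusted p = 0.00104). PSY (Unigene0068647) was at 2.25, 3.71 and 3.24 CPM in August and at 5.65, 5.76 and 5.05 CPM in September, a rise of 1.8-fold (log2 0.85, SE 0.237, adjusted p = 0.00937). Neither overlapped between months. The ratio of PSY1 to PSY in CPM was 4.22, 3.04 and 4.06 in August and 1.17, 1.08 and 1.08 in September, and the sum of the pair was 14.4 ± 2.39 and 11.6 ± 0.954 CPM.

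The desaturases moved against each other. PDS (Unigene0026198), phytoene desaturase, was at 22.1, 22 and 23.1 CPM in August and at 38.7, 35.5 and 39.8 CPM in September, a 1.69-fold rise without overlap (SE 0.0863 on the log2 scale, adjusted p = 3.34e-05). ZDS1 (Unigene0055520), which desaturates the next intermediate, fell by 0.35 on the log2 scale (SE 0.0969, adjusted p = 0.00854). The isomerases between and after them did not pass, with log2 fold changes of 0.29 for Z-ISO (Unigene0018439, SE 0.156) and 0.09 for CRTISO (Unigene0074036, SE 0.0786). CRTISO had the highest level per length of the desaturation steps, at 56.2 ± 4.64 and 59.7 ± 4.93 FPKM.

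Lycopene is closed to beta rings by LCYB and to an epsilon ring, the entry to lutein, by LCYE. The beta cyclase LCY1 (Unigene0032659) was at 34.9, 32.8 and 35.4 CPM in August and at 46.4, 47.2 and 42.3 CPM in September (log2 0.40, SE 0.0795, adjusted p = 0.00132). The epsilon cyclase CRTL-E-1 (Unigene0030274) was at 26.1, 31.1 and 31.3 CPM and then at 19.5, 22.8 and 22.8 CPM, and fell by 0.44 on the log2 scale (SE 0.111, adjusted p = 0.00525). Both changes were larger than the spread within months, and the ratio of LCY1 to CRTL-E-1 in CPM was 1.34, 1.05 and 1.13 in August and 2.38, 2.07 and 1.85 in September.

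The ring hydroxylases also went separate ways. BHY (Unigene0004235), a beta-carotene hydroxylase of the non-heme type that makes zeaxanthin, was at 17.3, 22.2 and 22.7 CPM in August and at 64.3, 77.7 and 58.1 CPM in September. It rose 3.23-fold (log2 1.69, SE 0.133, adjusted p = 2.88e-06), and BETA-OHASE (Unigene0000597), of the same KEGG number, rose 1.58-fold (adjusted p = 0.00218). CYP97A3 (Unigene0009988), a cytochrome P450 that hydroxylates the beta ring on the way to lutein in Arabidopsis, was at 196, 202 and 183 CPM in August. In September it was at 95.8, 105 and 108 CPM, a fall of 0.91 on the log2 scale without overlap (SE 0.0664, adjusted p = 1.72e-06).

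CYP97A3 had the highest mean level per length of this group in August, at 69.4 ± 3.02 FPKM, and in September, at 36.8 ± 2.32 FPKM. The ratio of BHY with BETA-OHASE to CYP97A3 in CPM was 0.153, 0.171 and 0.199 in August, against 0.843, 0.95 and 0.745 in September. CYP97C1 (Unigene0056210), the epsilon-ring hydroxylase, was at 6.69 ± 0.207 and 6.21 ± 0.873 CPM and did not pass (log2 -0.10, SE 0.173). The ratios of enzyme pairs were chosen after their values were seen and carry no test.

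**Figure D3:**
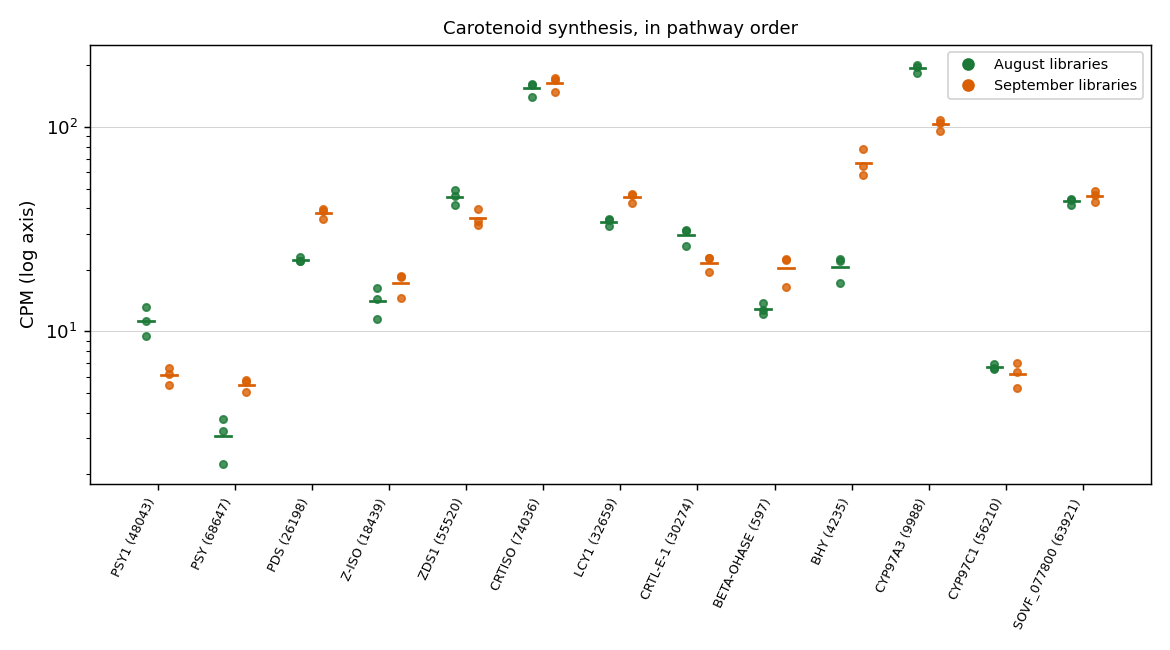
CPM (log axis) of tested carotenoid synthesis members in each library, in pathway order, with lines at the month means. PSY rises and PSY1 falls, BHY rises from about 20.7 to 66.7 CPM, and CYP97A3 falls from about 194 to 103 CPM.

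**Figure D4:**
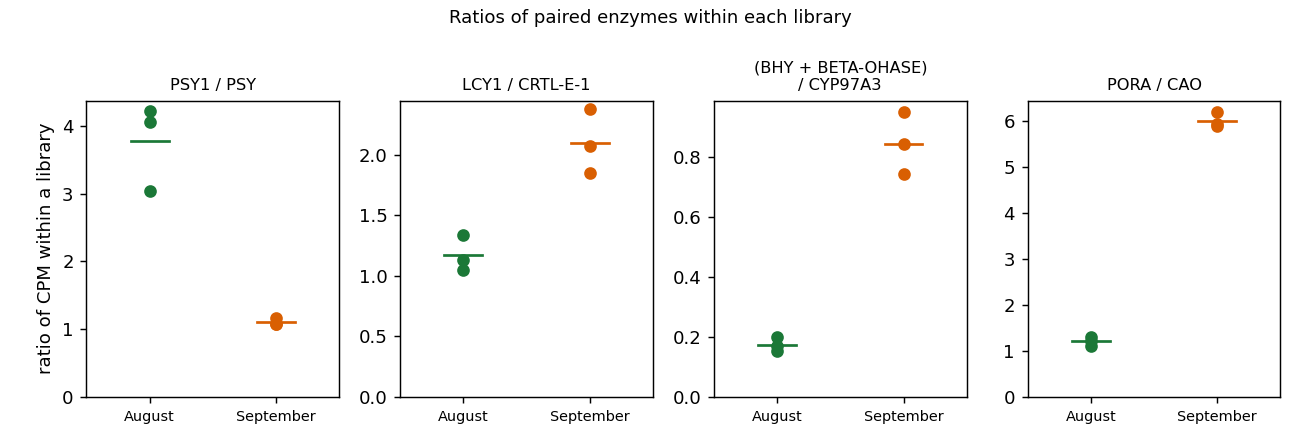
Ratio of CPM within each library for 4 pairs of enzymes (axes start at 0, lines are means of 3 libraries). PORA over CAO goes from 1.11 to 1.3 in August to 5.9 to 6.2 in September, and the other pairs are likewise separate between months.

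Zeaxanthin epoxidase, which converts zeaxanthin to violaxanthin, did not pass. The member with this KEGG number (SOVF_077800, Unigene0063921) was at 44.2, 41.7 and 44.1 CPM in August and at 42.8, 48.4 and 46.7 CPM in September (log2 0.08, SE 0.0768). A unigene set aside because its symbol is ABA2 has zeaxanthin epoxidase as its description (Unigene0053328), and it stood at 26.8 and 27.6 CPM (adjusted p = 0.747). Another unigene, outside both maps, carries the symbol ZEP (Unigene0011561) and did not pass (log2 0.40, adjusted p = 0.29). Epoxidase transcripts were thus present in both months, with overlapping libraries.

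Cleavage and abscisic acid type enzymes held the most extreme members. ZCD (Unigene0060670), a short unigene annotated to the cleavage dioxygenases, was at 3.31, 3.93 and 4.13 CPM in August and had 0 counts in each September library. Against a floor of 3 counts over the September libraries it was at least 56.3-fold lower. SDR2a (Unigene0042365), a short-chain dehydrogenase with the KEGG number of xanthoxin dehydrogenase, had 3 counts in August and 364 in September, at 12.7, 6.11 and 5.6 CPM. The ratio was 123, with an exact 95% interval of 41.7 to 598 for counting error only (adjusted p = 7.96e-06). Its fitted log2 fold change of 6.77 moved to 6.17 without the first August library and to 7.67 without the second.

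The aldehyde oxidase AO1 (Unigene0046267) was at 6.11, 6.23 and 6.22 CPM in August and at 11.4, 10.5 and 13.9 CPM in September, and rose 1.92-fold (adjusted p = 0.000389). A second AO1 unigene with the same best hit (Unigene0002387) stood at 12.7 and 14.7 CPM (log2 0.22, adjusted p = 0.136), and the sum of both rose by 0.53 (adjusted p = 0.000973). Among the unigenes set aside by symbol, NCED4 (Unigene0046885), of the family that cleaves epoxycarotenoids toward abscisic acid, was at 0.295 and 8.11 CPM (log2 4.77, adjusted p = 1.07e-06). CYP707A1 (Unigene0044679), of the family that breaks abscisic acid down, was at 0.154 and 4.78 CPM (log2 4.88, adjusted p = 1.98e-06). A second CYP707A1 unigene (Unigene0014042) was at 2.11 and 1.24 CPM and did not pass (log2 -0.77, adjusted p = 0.118).

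The 21 untested members were mostly short and scarce. Their median length from count and FPKM was 402 bases, against 1906 in the tested members, and 14 had 15 counts or fewer in all. They include 6 glutamyl-tRNA synthetases, 2 CCD4 unigenes with 3 and 2 counts, both in September, and the low SGR, CLH2, CHLH and hydroxylase fragments. A group of 4 was seen almost only in the second August library. HEM2 (Unigene0060073) had 83 counts there and gus1 (Unigene0053903) 34, with 0 in the other 5 libraries. A second gus1 unigene (Unigene0033748) had 23 counts there and 1 elsewhere, and FECH (Unigene0027948) had 4. Their best hits are in Quercus, Carpinus and Lupinus. Among all unigenes, 1042 had 10 or more counts in that library and 0 in the others, of which 480 had a best hit in Quercus and 143 in Carpinus, and they held 0.565% of its counts. Without that library 19 members were higher and 20 lower.

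Members were also counted by properties that did not choose them, with no test between the groups. The counts stand beside 35.4% higher and 32.5% lower over all tested unigenes. Of 51 tested members with a gymnosperm best hit, 15 were higher and 16 lower, and of 14 with another land plant, 4 were higher and 2 lower. The 1 tested member with an algal best hit was lower. A plastid term in the deposited GO component was carried by 45 members, of which 41 were tested, 13 higher and 12 lower. Among the 42 without it, 25 were tested, 6 higher and 7 lower. Within a month the median coefficient of variation of a tested member was 10.1% in August and 8.91% in September.

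Neighbouring pathways were counted by symbol, beside the same 35.4% higher and 32.5% lower over all tested unigenes. The methylerythritol phosphate route and geranylgeranyl diphosphate synthase, which supply plastid isoprenoid precursors, had 6 of 11 tested unigenes higher and 3 lower (median log2 fold change 0.60). Its most abundant unigene, ISPG (Unigene0031849), fell by 0.17 on the log2 scale (adjusted p = 0.0246). An ISPH unigene (Unigene0027095) had its largest change, from 0.112 to 3.21 CPM, with 2, 2 and 1 counts in August. More abundant unigenes with the symbol ISPH did not rise. Unigene0027096 stood at 43.8 and 41.5 CPM (adjusted p = 0.363), and Unigene0063250 fell from 14.5 to 8.89 CPM (adjusted p = 0.00375). HDR1 (Unigene0020394), listed by its symbol and without a KEGG number, rose from 37.9 to 60.5 CPM (log2 0.675, adjusted p = 5.61e-05). Whether HDR1 is the same enzyme as ISPH was not tested. GGPPS1 (Unigene0045470), with the KEGG number of geranylgeranyl diphosphate synthase and a best hit to a geranyl diphosphate synthase, fell from 14.9 ± 0.412 to 9.83 ± 0.4 CPM (adjusted p = 0.00126).

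Tocopherol genes, which share the geranylgeranyl precursor, had 4 of 10 higher and 1 lower. The methyltransferase VTE4 (Unigene0026944) stood at 45 and 44.2 CPM, and a second VTE4 unigene (Unigene0026946) had 0 counts in August and was at least 13.8-fold higher in September. Of regulators and plastid-lipid proteins 3 of 6 were higher and 2 lower. The ORANGE proteins, which stabilise phytoene synthase in Arabidopsis, went opposite ways, Unigene0074020 by a log2 fold change of -0.33 and Unigene0044300 by 0.22. The light-response factor HY5 did the same (Unigene0009692, -1.90, and Unigene0004789, 0.85). GUN4 (Unigene0039679), which aids magnesium chelatase, was at 8.12 and 7.21 CPM (adjusted p = 0.435).

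FLU (Unigene0046114), which restrains aminolevulinate synthesis in Arabidopsis, was looked up after the members' values were seen. It went from 31.4, 28.5 and 38.4 CPM to 11.6, 14.3 and 13.5 CPM and fell by 1.32 on the log2 scale (adjusted p = 1.83e-05). LIL3.1 (Unigene0018315), a membrane partner of chlorophyll synthesis enzymes, chosen in the same way, fell by 0.43 (adjusted p = 0.00012). Another LIL3.1 unigene (Unigene0025864) was at 14.4 and 17.7 CPM and did not pass (log2 0.30, adjusted p = 0.294).

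Of 8 tested pathway enzymes that carry a fitting symbol but lie outside both KEGG maps, 2 were higher and 0 lower. By unadjusted p under 0.05 none was lower either. They were 1 PPH unigene, given above, and a CCD unigene (Unigene0073321), which went from 0.797 to 5.01 CPM. The most abundant of them, another CCD unigene (Unigene0057505), stood at 154 ± 10.3 and 154 ± 8.93 CPM.

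Light-harvesting and photosystem proteins, the chlorophyll-binding end of the pathway, had 10 of 31 tested unigenes higher and 10 lower (median log2 fold change 0.02). The plastid-encoded psbC (Unigene0045204) had the highest CPM, on a unigene of 12625 bases, and fell from 694 ± 104 to 227 ± 43.4 CPM, and CAB7 (Unigene0037890) had the largest change, from 0.65 to 6.5 CPM. Per length, PSBO (Unigene0001345), of the oxygen-evolving complex, was highest, at 79.2 and 115 FPKM, against 54.8 and 17.9 FPKM for psbC (Unigene0045204). The summed level of the list was 1409 to 1695 CPM in August and 874.2 to 1046 CPM in September. The September mean of psbC (Unigene0045204) alone differed from that of August by -467 CPM.

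Markers of the kernel's parts were present in both months. Their calls are given beside 35.4% higher and 32.5% lower over all tested unigenes. The 8 green plastid markers (LHCA, LHCB and RBCS names) summed to 52.2 to 59.9 CPM in August and 55.7 to 62.5 CPM in September, with 4 of 6 tested unigenes higher and 2 lower. Embryo markers (WOX, PLT and ANT names) summed to 241 to 268 CPM and 274 to 300 CPM. Of their 10 tested unigenes 4 were higher and 3 lower. Among them WOX8 (Unigene0047983) went from 104 to 48.4 CPM and PLT4 (Unigene0009669) from 1.58 to 32.9 CPM. Storage protein markers summed to 875 to 929 CPM and 1423 to 1539 CPM, with 4 of 6 tested unigenes higher and 1 lower. The part of a change in the share of embryo or megagametophyte in the members' values was not tested.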

How the data were processed

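RNA from seed kernels of 2 harvests was sequenced, with 3 libraries a month. The submitters' processing notes name fastp and RSEM without versions. Assembler, build, annotation programs and strand were not stated there or in the labels, so overlapping or antisense transcripts may share reads. The authors deposited estimated counts per unigene, not normalized, per the file headers, and FPKM values, scaled to unigene length and library total, per the file headers. Counts were rounded to whole numbers, which altered 8 values.

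Tests used edgeR 4.0.16 in R 4.3.3: filterByExpr by month (minimum count 10, minimum total 15), TMM, the quasi-likelihood F test, September over August, and Benjamini-Hochberg adjustment over 23216 unigenes at 0.05. All adjusted p-values come from it unless another tool is named. The standard error of a log2 fold change was its size over the square root of F. CPM is relative to counts in tested unigenes, 98.6% to 99.7% of a library, with the TMM factor. Levels of different genes were compared as FPKM, except in the within-library ratios, the sums and the ranks stated to be in CPM. Unigene length was derived from count and FPKM. Floors (3 counts over the libraries of a month) and exact 95% intervals cover counting error only. DESeq2 1.42.0 and limma 3.58.1 served as alternatives. The pipeline was tested on simulated counts.

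Roles were assigned by KEGG number and symbol. In each role the member with the highest mean FPKM and the passing member with the largest change at a mean of 1 CPM or more were named, with the listed pathway enzymes. Members and lists were chosen with earlier results of these data known. Neighbouring lists were drawn by symbol, storage proteins by description, and PSAT and PSAP symbols were kept out of the photosystem list. No sequences were used.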

Additional observations from a re-analysis of the deposited data

How the results depend on the processing

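Of 988 values of single tested members under 15 alternatives, 0 changed sign with a call, and 967 stayed on the same side of the threshold. Of 38 called members 35 kept sign and call under every alternative that gave a value, and 3 (2 CLH2 unigenes and HO1) lost the call in at least 1. A further 9 members passed in at least 1 alternative. Leaving out 1 library at a time gave 19 to 21 members higher and 17 to 22 lower. It gave 12 to 14 and 12 to 17 of the chlorophyll and porphyrin members, and 7 and 5 of the carotenoid members each time. Over all tested unigenes it gave 7885 to 8493 higher and 7199 to 7660 lower. On the log2 scale the summed CPM moved from 0.136 to 0.149 for all members and from 0.188 to 0.202 for chlorophyll and porphyrin members. The carotenoid sum, -0.01 with all libraries, ran from -0.035 to 0.024, and was positive without the third August library (0.0025) or the first September library (0.024). With the replicate block 19 members were higher and 19 lower. Same-numbered libraries were not shown to be paired, since their deviations correlated at 0.0924, 0.043 and 0.03, and the third August library correlated best with the second September library (0.0426). With no filter 22 members were lower. Lower calls in the shared tetrapyrrole steps went from 1 to 4, and those of every other role did not change. That role holds HEM2 and the gus1 unigenes, seen almost only in the second August library. Members with few counts, such as CHLH, ZCD and SDR2a, are limited by depth.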
